A study of Mus musculus with 9 samples.

Results

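The genes described here are Esr1, Esr2, Pgr, Prlr, Ghr, Oxtr, Socs2, Cish and Greb1, a set of 9 made of receptors for reproductive hormones and growth hormone and of genes that these hormones switch on. They were taken by name from an array table of 18194 genes, each represented by its brightest probe set over 9 arrays among those annotated to 1 gene only. A probe set of their own was found for 8 of the 9, with 23 probe sets between them, and Prlr, the prolactin receptor gene, was not analysed here. RNA came from osteocyte-enriched shafts of the tibia of CD1 wild type mice aged 16 to 18 weeks, and was measured on Affymetrix mouse arrays at 3 reproductive stages with 3 arrays each. Virgin mice were age-matched controls, lactation mice had nursed litters of 8 to 13 pups and were killed on day 12 of lactation, and post-lactation mice lost their pups on day 12 and were killed on day 7 after that forced weaning. All mice carried the same wild type genotype and all shafts were processed with collagenase, trypsin and EDTA to remove marrow, periosteum and surface cells. Stages follow the array titles, because the source text given for post-lactation samples says virgin. The labels do not tell whether separate mice were used for separate arrays, so p-values reflect only the spread among these arrays, which may be technical.

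Estrogen and progesterone act through nuclear receptors, the estrogen receptors alpha (Esr1) and beta (Esr2) and the progesterone receptor (Pgr), which bind DNA and change transcription of target genes such as Greb1 and Pgr itself. Growth hormone and prolactin act through related cytokine receptors, Ghr and Prlr, which activate the kinase JAK2 and the transcription factor STAT5. STAT5 in turn drives Socs2 and Cish, whose proteins damp the same signal. Oxytocin, the hormone of milk ejection, acts through the G protein-coupled receptor Oxtr. In bone, estrogen signalling is known for restraining resorption, and during lactation estrogen is low while prolactin and oxytocin are high.

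The promoters of Cish and Esr1 are shown because they hold the STAT5 core motif TTCNNNGAA, Cish as a STAT5 target and Esr1 as a member of the estrogen branch with a single match. Sequences are from RefSeq, build GRCm38.p6, and run from 250 bases before to 50 bases after an annotated start site, 5′ to 3′, with the motif in capitals. The Cish window is chr9:107296409-107296708 on the plus strand and the Esr1 window, at the second of 2 listed starts, is chr10:4709908-4710207 on the plus strand.
Cish: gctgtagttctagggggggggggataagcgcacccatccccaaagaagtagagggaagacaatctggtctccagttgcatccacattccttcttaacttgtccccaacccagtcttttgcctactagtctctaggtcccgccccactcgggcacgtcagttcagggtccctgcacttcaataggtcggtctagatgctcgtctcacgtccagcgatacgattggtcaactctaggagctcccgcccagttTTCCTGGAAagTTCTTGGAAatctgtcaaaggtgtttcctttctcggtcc
Esr1: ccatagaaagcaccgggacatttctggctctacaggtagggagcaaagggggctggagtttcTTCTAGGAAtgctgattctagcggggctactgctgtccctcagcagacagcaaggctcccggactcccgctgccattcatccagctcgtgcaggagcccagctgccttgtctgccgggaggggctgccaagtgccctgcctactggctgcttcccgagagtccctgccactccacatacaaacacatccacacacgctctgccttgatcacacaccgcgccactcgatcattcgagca
Cish held 2 matches, beginning 0 and 11 bases past its start site, which are TTCCTGGAA and TTCTTGGAA and do not overlap. Esr1 held 1 match, beginning at base -188. Among 32851 windows of this length for all genes, 8.30% held at least 1 match and 0.457% held 2 or more. The motif reads the same on both strands, so 1 search covered both. The members had 13 windows in 8 genes, of which 3 held the motif: those 2 and 1 of Prlr. Ghr held 0 matches, and Socs2 had no entry. The full estrogen response element GGTCANNNTGACC, which also reads the same on both strands, was in 0 of the 13 windows and in 0.0700% of all windows.

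Values are RMA signals on the log2 scale. The arrays carried no detection calls, so the 40th percentile of gene means, 4.87, served as the background level, and a group mean under it is called near background. Shares of exactly equal values split the arrays into 3 sets with 1 array of every stage each. Set 1 joins virgin 1 to lactation 3 and post-lactation 1, set 2 joins virgin 2 to lactation 2 and post-lactation 3, and set 3 joins virgin 3 to lactation 1 and post-lactation 2. The median signal was 4.32 to 4.34 for set 1 arrays, 4.80 to 4.82 for set 2 arrays and 4.57 for set 3 arrays. Differences are therefore given over all arrays, within sets, and from a fit with the set as a block. For lactation against virgin 57.6% of all genes were exactly equal in at least 1 set. Equal values may not be independent readings, so the block fit may overstate the precision. The osteocyte markers Sost, Dmp1, Phex and Mepe averaged 10.85 to 13.20 in virgin, 11.05 to 13.65 in lactation and 11.25 to 13.68 in post-lactation arrays, while the osteocyte hormone gene Fgf23 was near background at every stage. Virgin 1 stood apart, with Sost at 8.14 against 13.39 and 13.55 in the other virgin arrays and an osteocyte marker mean of 2.90 above the array median against 4.75 and 5.0. Of the 8 measured members, 6 had their lowest value of all 9 arrays in virgin 1, so the values it moves are also given without it. Blood and bone cell markers moved too: between post-lactation and lactation the median difference was -4.79 for erythroid markers, 9 of 9 measured being called lower by limma, and -1.22 for osteoclast markers, of which 0 of 9 were called by limma and 5 with the set block. In that comparison 0.693% of all genes were called lower by limma and 2.99% with the set block. Between post-lactation and virgin the erythroid median was -3.51, with 8 of 9 called lower by limma, against 0.17% of all genes. Between lactation and virgin the median was 1.22 for erythroid and 1.33 for osteoclast markers, each with 9 of 9 higher in mean and 0 called by limma. With the set block 1 osteoclast and 0 erythroid markers were called higher there, against 0.022% of all genes. Neutrophil genes were bright at every stage, S100a8 averaging 14.31 in virgin, 14.07 in lactation and 14.38 in post-lactation arrays. Per array, neutrophil markers averaged 7.45 to 8.53 above the array median, and osteocyte markers 2.90 to 5.0. The osteocyte mean is over 10 genes and is lowered by Fgf23 and Kera, both near background at every stage. Signals of different probe sets do not give the shares of cells. The part of these blood and bone cells in the members' values was not tested. The RNA came from whole bone shafts, and fewer cells of a type and less RNA per cell cannot be told apart. Precision is limited by the number of arrays.

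In these bones 4 of the 8 measured genes, Esr1, Ghr, Socs2 and Cish, lay above the background level on all 9 arrays. Esr2, Pgr and Oxtr were near background at every stage, and Greb1 had 1 group mean, that of post-lactation, above it. Socs2 had a mean over the arrays at the 88.1th percentile of all genes, Esr1 at the 84.4th, Ghr at the 79.8th and Cish at the 58.0th. These percentiles rank the signals of different probe sets, which also depend on the probes, and are not levels of one gene against another. No member passed the test in any of the 3 comparisons, with or without the set block.

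**Figure D1:**
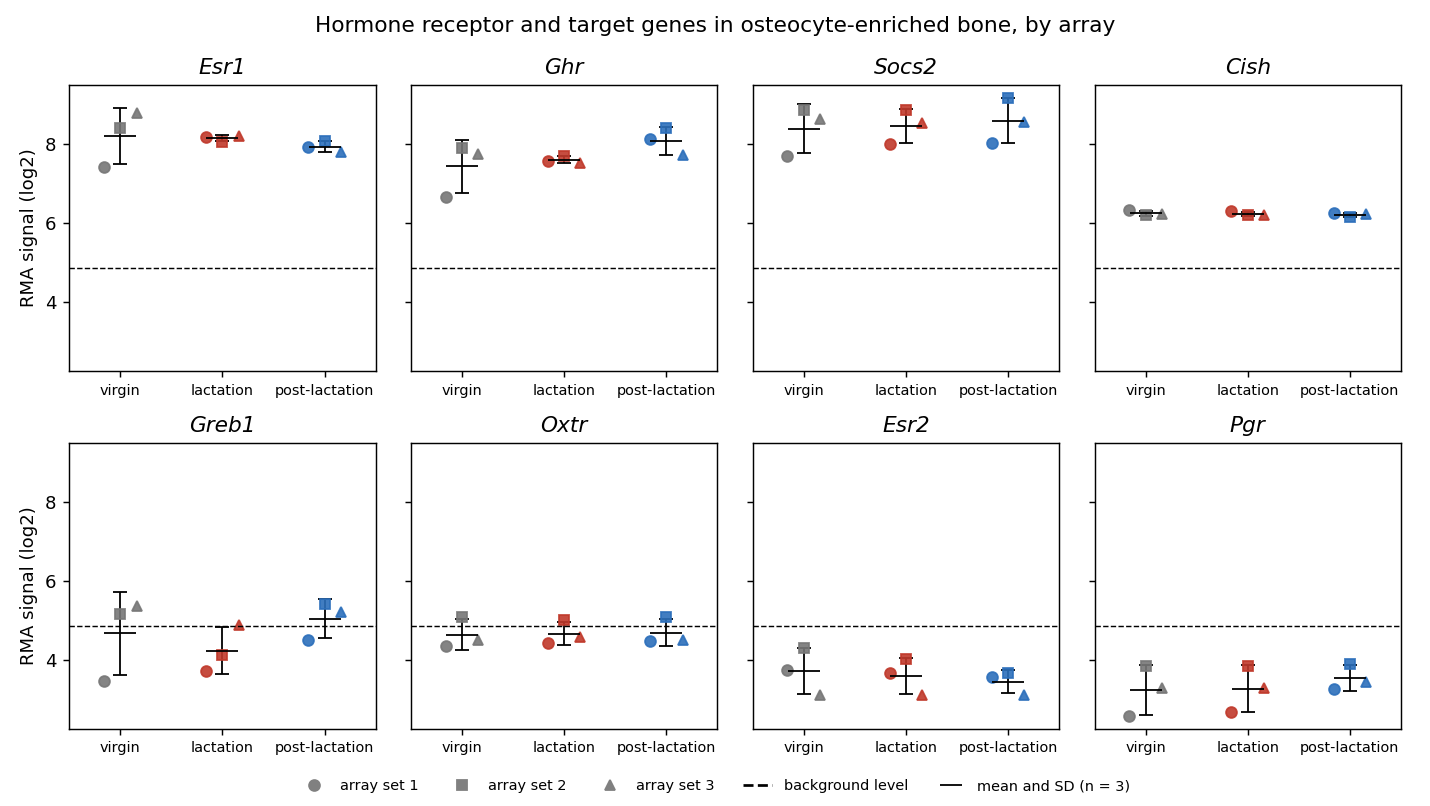
RMA signal (log2, vertical axis) of the 8 measured genes on each array, by stage, with the mean and SD of 3 arrays as a bar, the array set as the marker shape and the background level of 4.87 as a dashed line. Esr1, Ghr, Socs2 and Cish lie above the line on all 9 arrays, and Cish spans 6.16 to 6.32.

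Esr1, which encodes the main estrogen receptor of bone cells, had 7.41, 8.40 and 8.78 in virgin 1, 2 and 3, 8.21, 8.05 and 8.18 in lactation 1, 2 and 3, and 7.92, 7.79 and 8.07 in post-lactation 1, 2 and 3. The virgin arrays held both the lowest and the highest value, and all 3 stages overlapped. Lactation arrays averaged 8.15 ± 0.08 and virgin arrays 8.19 ± 0.71 (SD, n = 3 each), a difference of -0.05 (SE 0.31, 95% interval -0.72 to 0.63, limma adjusted p = 1). Post-lactation arrays averaged 7.93 ± 0.14, which was -0.22 against lactation (interval -0.89 to 0.45) and -0.27 against virgin (interval -0.94 to 0.40), with an adjusted p of 1 by limma for both. Within sets 1, 2 and 3 the post-lactation minus virgin difference was 0.52, -0.33 and -0.99, so the sets differed in sign. Without virgin 1 it was -0.66 and the lactation minus virgin difference was -0.44, and neither passed. A dimmer probe set of Esr1, 1435663_at, averaged 5.86 in post-lactation, 5.97 in lactation and 6.25 in virgin arrays, the same order, and differed by -0.39 between post-lactation and virgin (SE 0.49). The other, 1421244_at, was near background at a mean of 2.58.

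Ghr, the growth hormone receptor gene, had the widest span of group means among the 4 genes above background, 0.64. It stood at 6.67, 7.89 and 7.76 in virgin 1, 2 and 3, at 7.53, 7.70 and 7.57 in lactation 1, 2 and 3, and at 8.12, 7.71 and 8.41 in post-lactation 1, 2 and 3. All post-lactation arrays lay above all lactation arrays, although post-lactation 2 did so by the small margin of 7.71 against 7.70, and the virgin arrays overlapped both other stages. Post-lactation arrays averaged 8.08 ± 0.35 and lactation arrays 7.60 ± 0.09 (SD, n = 3 each), a difference of 0.48 or 1.39-fold (SE 0.32, interval -0.22 to 1.17), which did not pass (limma adjusted p = 1, and 0.502 with the set block). Within sets 1, 2 and 3 it was 0.54, 0.70 and 0.18. Leaving out 1 array at a time gave 0.31 without post-lactation 3 as the lowest value and 0.66 without post-lactation 2 as the highest. Groups did not overlap in this direction for 1 of the 8 members, against 3.26% of all genes.

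Against virgin, at 7.44 ± 0.67 (SD, n = 3), post-lactation Ghr differed by 0.64 or 1.56-fold (SE 0.32, interval -0.05 to 1.34, limma adjusted p = 1, and 0.644 with the set block). The differences within sets 1, 2 and 3 were 1.45, 0.51 and -0.04, and without virgin 1 the difference was 0.26. Lactation minus virgin was 0.17 (SE 0.32), and -0.22 without virgin 1. A second Ghr probe set, 1451501_a_at, averaged 7.42 in post-lactation, 6.87 in lactation and 6.79 in virgin arrays, and its post-lactation values of 7.75, 6.90 and 7.61 overlapped the lactation values of 6.92, 6.85 and 6.84. The third, 1451871_a_at, was near background at a mean of 3.99. Markers of adipocytes and marrow stroma, in 6 of 8 listed genes measured, had a mean of 5.76 to 6.83 above the array median in post-lactation, 5.40 to 5.87 in lactation and 5.73 to 5.74 in virgin arrays, and 5 of the 6 had a higher mean in post-lactation than in lactation. Markers of B lymphocytes, with 9 of 10 measured, stood at 3.20 to 3.89 in post-lactation, 2.03 to 2.74 in lactation and 1.22 to 2.84 in virgin arrays, and 9 of the 9 had a higher mean in post-lactation than in lactation. By limma 0 of these markers passed as higher, and with the set block 1 did, the B cell precursor gene Vpreb1 between post-lactation and lactation (difference 1.97, limma adjusted p = 0.0464). In that fit and comparison 0.539% of all genes passed as higher. Within sets 1, 2 and 3 the adipocyte and stroma median difference between post-lactation and lactation was 1.42, 0.75 and 0.006. Also mostly higher in mean were megakaryocyte (5 of 5), endothelium (5 of 6), macrophage (6 of 8) and neutrophil (6 of 8) markers. Osteoblast and muscle markers had 2 of 6 higher each, and osteoclast and erythroid markers 0 of 9 each. The part of any of these cells in the Ghr values was not tested.

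**Figure D2:**
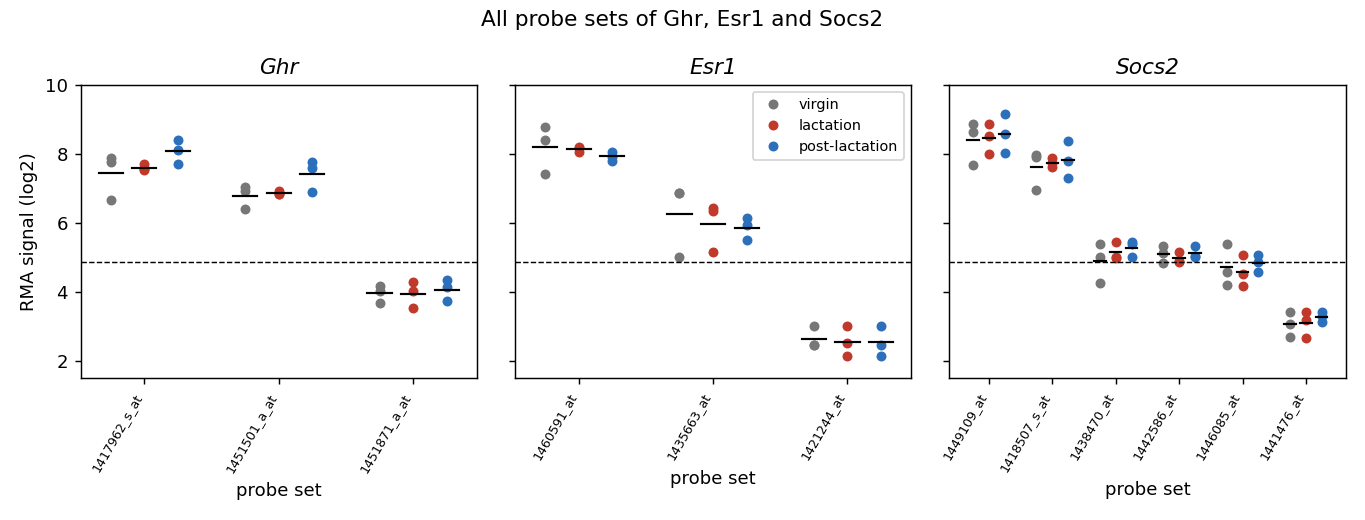
RMA signal (log2, vertical axis) of every probe set of Ghr, Esr1 and Socs2 (horizontal axis, brightest first), with 1 point per array, a bar at the group mean and the background level as a dashed line. The brighter pair of Ghr probe sets has its highest group mean in post-lactation, 8.08 and 7.42.

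The genes whose 9-array profiles lay closest to that of Ghr, after each gene's mean was subtracted, were Tcf3, Snai2 and Tnfrsf13c, among 10915 genes above the background level. Their root mean square difference from Ghr was 0.13, 0.13 and 0.14, against an SD of Ghr over the 9 arrays of 0.48. Tcf3 and Snai2 encode transcription factors and Tnfrsf13c a receptor of B lymphocytes. Tcf3 averaged 8.06 in virgin, 8.13 in lactation and 8.71 in post-lactation arrays.

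Socs2, a brake on growth hormone signalling that STAT5 induces, was the brightest member. Its values were 7.69, 8.85 and 8.63 in virgin 1, 2 and 3, 8.53, 8.85 and 8.00 in lactation 1, 2 and 3, and 8.03, 8.56 and 9.16 in post-lactation 1, 2 and 3. At every stage the set 1 array was lowest and the set 2 array highest, and the stages overlapped. Means were 8.39 ± 0.62 in virgin, 8.46 ± 0.43 in lactation and 8.59 ± 0.57 in post-lactation arrays (SD, n = 3 each). The difference between lactation and virgin was 0.07 (interval -0.74 to 0.88), that between post-lactation and lactation 0.12 (interval -0.69 to 0.94), and that between post-lactation and virgin 0.20 (interval -0.62 to 1.01). Without virgin 1 and with no block the differences from virgin turned in sign, to -0.28 for lactation and -0.15 for post-lactation. That fit left the virgin group with no array of set 1, the lowest set at every stage. With the set block and without virgin 1, lactation minus virgin was -0.02. Leaving out whole sets gave 0.12 to 0.32 for post-lactation minus virgin. With the set block the intervals over all arrays narrowed to -0.19 to 0.34, -0.14 to 0.39 and -0.07 to 0.46, in the same order. Virgin 2 and lactation 2 had exactly equal Socs2 values, so these narrower intervals may overstate the precision. Adjusted p was 1 for each by limma and 0.877, 0.643 and 0.730 with the set block. A second Socs2 probe set, 1418507_s_at, averaged 7.61, 7.75 and 7.81 at the 3 stages, and the other 4 had means over all arrays of 3.15 to 5.11.

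Cish, the other STAT5-induced inhibitor, had nearly the same signal on every array. It read 6.32, 6.21 and 6.22 in virgin 1, 2 and 3, 6.22, 6.21 and 6.30 in lactation 1, 2 and 3, and 6.27, 6.22 and 6.16 in post-lactation 1, 2 and 3. The whole range, 6.16 to 6.32, was covered by overlapping stages, and the SD between arrays of a stage was 0.05 to 0.06. The difference was -0.01 between lactation and virgin (95% interval with the set block -0.15 to 0.13), -0.03 between post-lactation and lactation (-0.17 to 0.12) and -0.03 between post-lactation and virgin (-0.18 to 0.11). Without the block the first interval ran from -0.40 to 0.38. Virgin 2 and lactation 2 had exactly equal Cish values, as did virgin 3 and post-lactation 2, so the block intervals may overstate the precision. The set 1 arrays read 6.27 to 6.32 and all others 6.16 to 6.22. Above the array median Cish stood between 1.36 and 2.01, also highest in set 1, whose array medians are the lowest. Its level thus was highest in set 1 on both scales. No difference of Cish was detectable at this precision, and no further probe set annotated to Cish alone was measured. The relation of the STAT5 core matches to this signal was not tested.

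**Figure D3:**
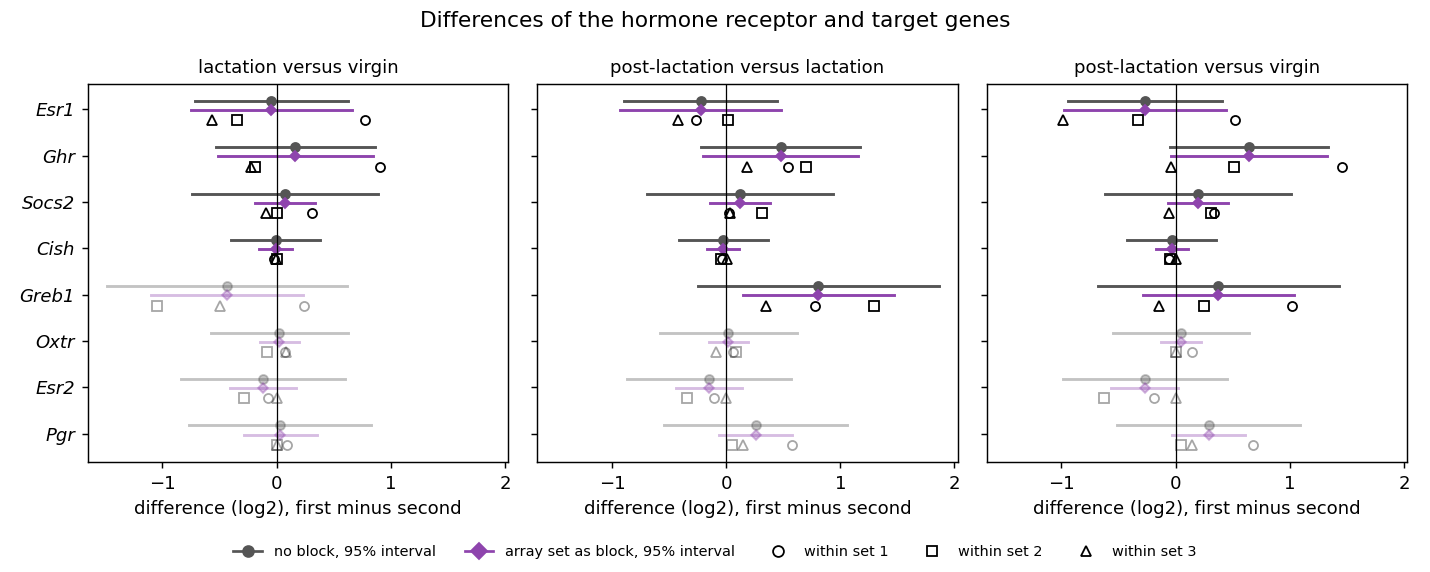
Differences (log2, horizontal axis, first named stage minus second) of the 8 measured genes with 95% intervals, from a fit without a block (grey circles) and from one blocked by array set (purple diamonds), and the differences within sets 1, 2 and 3 (open symbols); faint symbols mark genes near background in both stages. With the set block only the interval of Greb1 between post-lactation and lactation, 0.14 to 1.47, leaves out 0.

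Greb1, an estrogen-induced coactivator of the estrogen receptor, lay around the background level. Its values were 3.47, 5.17 and 5.37 in virgin 1, 2 and 3, 4.88, 4.12 and 3.71 in lactation 1, 2 and 3, and 4.49, 5.22 and 5.42 in post-lactation 1, 2 and 3. In all, 5 of the 9 arrays, 2 virgin, 1 lactation and 2 post-lactation, exceeded 4.87, and the stages overlapped. Post-lactation arrays averaged 5.04 ± 0.49 and lactation arrays 4.24 ± 0.59 (SD, n = 3 each), a fitted difference of 0.81 (SE 0.48, limma adjusted p = 1), or at least 0.18 when lactation is raised to the background level. The differences within sets 1, 2 and 3 were 0.78, 1.30 and 0.35. With the set block the unadjusted p was 0.0244, where 15.1% of all genes had one under 0.05, and limma's adjusted p was 0.231. Virgin arrays averaged 4.67 ± 1.04, under the background level only through virgin 1. The fitted post-lactation minus virgin difference was 0.37 (SE 0.48, limma adjusted p = 1), or 0.18 when the virgin mean is raised to that level. Without virgin 1 and with no block the fitted difference was -0.22, and leaving out whole sets gave 0.05 to 0.64. Virgin and lactation were both near background, so no difference is given between them. The other 3 Greb1 probe sets had means over all arrays of 2.68 to 4.29, under the background level. The profiles closest to Greb1 were those of Rarres2, Gadd45g and Rpl27a, with root mean square differences of 0.19, 0.20 and 0.25 against an SD of Greb1 of 0.74.

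The remaining receptors gave no signal that could be set apart from background, so no difference is given for them. Oxtr was closest to the level, with 4.34, 5.09 and 4.49 in virgin 1, 2 and 3, 4.58, 5.0 and 4.42 in lactation 1, 2 and 3, and 4.48, 4.49 and 5.09 in post-lactation 1, 2 and 3. The 3 arrays above 4.87 were those of set 2, 1 from each stage. The Oxtr means of 4.64, 4.67 and 4.69 at the 3 stages exceeded a second level of 4.52, the 95th percentile of 77 olfactory, vomeronasal and taste receptor genes. Esr2 ranged from 3.12 to 4.29 and read exactly 3.12 on all 3 arrays of set 3. Pgr ranged from 2.59 to 3.91, and virgin 2 and lactation 2 both read 3.86. Over the 8 members 10 of 72 pairs of arrays within a set had exactly equal values, 13.9%, so some differences within sets are exactly 0. Neither Esr2 nor Pgr reached the sensory receptor level at any stage.

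Over the 3 comparisons 0 of the 8 members were called by limma at an adjusted p under 0.05, and 0 with the set block. For lactation against virgin the background was 0% of genes called by limma and 0.022% with the set block. An unadjusted p under 0.05 was found for 0 members in either fit, against 1.80% of all genes, or 8.01% with the set block. For post-lactation against lactation the background was 0.709% called by limma and 3.53% with the set block. An unadjusted p under 0.05 was found for 0 members, against 5.06% of all genes, and with the set block for 1 member, Greb1, against 15.1%. For post-lactation against virgin the background was 0.176% called by limma and 0.451% with the set block. An unadjusted p under 0.05 was found for 0 members in either fit, against 2.09% of all genes, or 8.11% with the set block. With 8 members a count of 0 is close to these shares. The median difference over the members was 0.01, 0.07 and 0.12 in these comparisons, beside 0.01, 0.00 and 0.00 over all genes.

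Other genes of the same hormone pathways were taken from 7 lists with 104 of 119 genes measured, and 0 of the 104 passed the test by limma in any comparison. With the set block 1 of the 104 passed, Hsd17b11, an enzyme of the hydroxysteroid dehydrogenase family, between post-lactation and lactation. In that fit and comparison 3.53% of all genes passed in either direction and 0.539% as higher, so 1 gene does not set these lists apart. It averaged 10.19 ± 0.06 in post-lactation and 9.72 ± 0.15 in lactation arrays (SD, n = 3 each), a difference of 0.47 or 1.38-fold that was 0.41, 0.40 and 0.58 within sets 1, 2 and 3 (limma adjusted p = 0.0298 with the set block and 0.857 without). The median over all 104 was -0.03 for lactation against virgin, 0.06 for post-lactation against lactation and 0.06 for post-lactation against virgin.

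Signal transducers of growth hormone and prolactin, 24 of 25 genes measured, had a median difference of -0.05 for lactation against virgin, with 10 of 24 higher in mean. Grb10, an adaptor that inhibits receptor tyrosine kinases, averaged 8.32 ± 0.13 in lactation and 7.61 ± 0.49 in virgin arrays (SD, n = 3 each), a difference of 0.71 that did not pass (limma adjusted p = 1, and 0.276 with the set block). Ptpn6, a phosphatase of blood cells that quenches cytokine receptors, differed by -0.50 between lactation and virgin and was not called. For post-lactation against lactation the median was 0.11 with 15 of 24 higher in mean. Ptpn6 averaged 9.29 ± 0.24 in post-lactation and 8.58 ± 0.25 in lactation arrays, a difference of 0.71 (limma adjusted p = 0.750, and 0.0569 with the set block). Irs2, a docking protein gene of insulin and growth factor receptors, differed by 0.56, but by 1.41, 0.14 and 0.13 within sets 1, 2 and 3. For post-lactation against virgin the median was 0.10 with 15 of 24 higher in mean, and the largest differences were 0.34 for Irs2 and 0.33 for the related Irs1, and neither passed.

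The STAT5-associated target list, with all 14 genes measured and 9 above background in at least 1 stage of each comparison, had medians of 0.04, 0.04 and 0.02. Igf1, the growth factor by which growth hormone acts on bone, averaged 8.71 ± 0.39 in post-lactation, 8.05 ± 0.25 in lactation and 8.02 ± 1.00 in virgin arrays (SD, n = 3 each), with differences of 0.66 for post-lactation against lactation and 0.69 for post-lactation against virgin (limma adjusted p = 1 for both). Within sets 1, 2 and 3 the first was 1.38, 0.31 and 0.30 and the second 2.24, 0.13 and -0.29, largest in set 1. Osm, a cytokine gene of blood cells, differed by 0.83 between post-lactation and lactation (SE 0.40, limma adjusted p = 1, and 0.247 with the set block). Id1, a transcription inhibitor gene, differed by -0.63 between lactation and virgin (SE 0.61), but by 1.55, -1.61 and -1.81 within sets 1, 2 and 3, and by -0.88 between post-lactation and virgin, neither of them called. Ccnd1, the cyclin D1 gene, differed by 0.51 between lactation and virgin (SE 0.29, limma adjusted p = 1, and 0.504 with the set block).

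Steroid receptors and coregulators, 19 of 22 measured, had medians of -0.03, 0.05 and -0.04 for lactation against virgin, post-lactation against lactation and post-lactation against virgin. Nr3c1, the glucocorticoid receptor gene, averaged 8.37 ± 0.11 in post-lactation, 7.89 ± 0.32 in lactation and 8.21 ± 0.36 in virgin arrays. Its post-lactation minus lactation difference of 0.49 had an adjusted p of 1 by limma and 0.0939 with the set block, and was 0.76, 0.36 and 0.34 within sets 1, 2 and 3. Its lactation minus virgin difference was -0.32. Med1, a coactivator subunit, differed by -0.66 between lactation and virgin, but by -2.32, 0.07 and 0.27 within the sets. Between post-lactation and lactation it differed by 0.45, but by 1.61, -0.02 and -0.23 within sets 1, 2 and 3. Fkbp4 and Ncoa1, a receptor chaperone and a coactivator, differed by -0.28 and 0.27 between post-lactation and virgin, neither of them called.

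Estrogen and progesterone targets, 18 of 20 measured, had medians of -0.01, 0.07 and 0.03. Tnfsf11, the osteoclast signal RANKL and a progesterone target in the breast, differed by 0.44 between lactation and virgin and by 0.61 between post-lactation and virgin (SE 0.26 for both, limma adjusted p = 1). Within sets 1, 2 and 3 the first was -0.35, 0.73 and 0.93, so the sets differed in sign. The second was 0.32, 0.86 and 0.64. Xbp1, a transcription factor gene of secretory cells, differed by -0.43 between lactation and virgin. Ccn5, an estrogen-induced gene, differed by -0.81 between post-lactation and lactation and by -0.59 between post-lactation and virgin. Within sets 1, 2 and 3 the first was -0.74, 0 and -1.69 and the second -1.51, 0.32 and -0.59. Ltf, which encodes lactoferrin of neutrophil granules and is estrogen-induced in the uterus, differed by 0.64 between post-lactation and lactation (limma adjusted p = 0.657, and 0.0744 with the set block). Neutrophil markers, 8 of 9 measured and Ltf among them, stood at 7.96 to 8.12 above the array median in post-lactation and 7.45 to 8.00 in lactation arrays, and their part in the Ltf value was not tested.

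Enzymes of steroid metabolism, 12 of 17 measured, had medians of -0.03, 0.05 and 0.02. Besides Hsd17b11, which was -0.31 in lactation against virgin, Hsd11b1, which activates glucocorticoids, averaged 9.12 ± 0.08 in post-lactation, 8.76 ± 0.04 in lactation and 9.30 ± 0.67 in virgin arrays, and no difference passed. Between post-lactation and virgin the largest differences were those of Hsd11b2, which inactivates glucocorticoids and was near background in virgin arrays, and of Cyp1b1, a steroid hydroxylase gene. Hsd11b2 was at least 1.03-fold higher in mean against the background level and Cyp1b1 differed by 0.22, and neither was called. Oxytocin signalling genes, 12 of 15 measured, had medians of -0.05, 0.15 and 0.12. Itpr2, a calcium release channel gene, differed by 0.71 between post-lactation and lactation and by 0.57 between post-lactation and virgin (limma adjusted p = 0.750 and 1). Ptgs2, the inducible prostaglandin synthase gene, differed by 0.79 between lactation and virgin and by -0.72 between post-lactation and lactation, each with an SE of 0.53. Rgs2, which damps G protein signals, differed by -0.29 between lactation and virgin, and Nfatc1, a calcium-regulated transcription factor gene, by 0.32 between post-lactation and virgin, neither of them called. Of 5 hormone genes measured, Gh at 4.95 to 5.08 and Oxt at 6.86 to 6.94 had a group mean above background. Their largest differences were 0.13 and 0.08 in size. Within sets 1, 2 and 3 Oxt differed by -0.24, 0 and 0 between lactation and virgin. Between post-lactation and virgin Oxt was exactly equal in every set, so its values may not be independent readings. The 2 milk protein genes on the STAT5 list, Csn2 and Wap, averaged 2.73 to 2.83 and 3.77 to 3.86 at the 3 stages, near background.

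**Figure D4:**
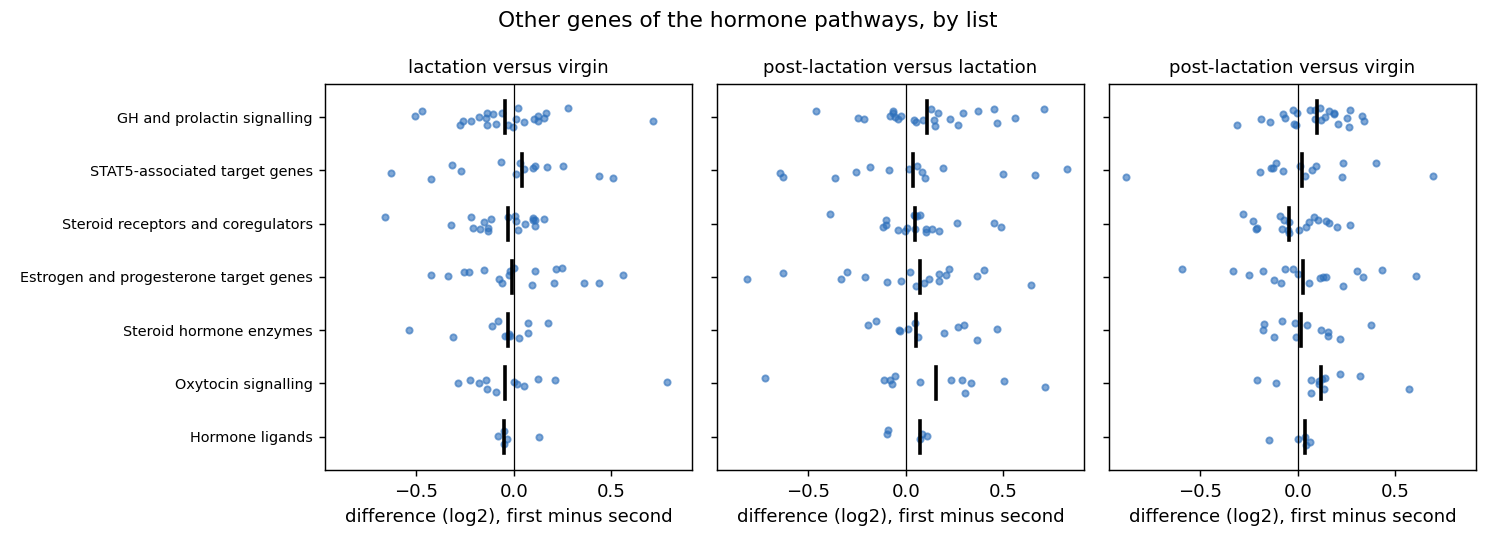
Differences (log2, horizontal axis, first named stage minus second) of 104 measured genes in 7 hormone pathway lists, with 1 point per gene and a black bar at each list's median. The medians lie between -0.05 and 0.15, and points scatter on both sides of 0 in every list.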

How the data were processed

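RNA of osteocyte-enriched tibial shafts was hybridised to Affymetrix mouse arrays, 3 per stage. The authors deposited log2 values of 45101 probe sets, made by RMA per the submitters' processing notes, with GenePattern and Bioconductor named in the series design text. Their versions and any filter: not given in the sources used here. Values lay between 1.55 and 14.9 and were used on that scale. Probe sets were named with the supplied annotation: 34958 named 1 gene, 932 several and 9211 none. For each of 18194 genes the brightest probe set was fitted with limma (version 3.58.1, under R 4.3.3: lmFit, eBayes, all 9 arrays, 6 residual degrees of freedom, or 4 with the set block), and p-values were Benjamini-Hochberg adjusted over all genes at 0.05. The code was run on simulated data with planted changes, independent noise taken from the less variable genes and no array sets. That run does not show how the fit performs on these arrays.

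The share of probe sets identical between a pair of arrays was 36.1% to 44.1% within sets 2 and 3, 2.50% to 2.72% within set 1, and at most 0.00443% across sets. Deviations from group means correlated between arrays of the same set at 0.47 to 0.73 over genes, and between arrays of the same title number at -0.41 to 0.67, so the title numbers do not pair the arrays. Members and pathway lists were chosen with earlier results of these data known. The genes named are the members, the genes of each list called in either fit and the pair with the largest differences above background, markers, and the 3 nearest profiles of members whose group means spanned at least 0.5. Alternatives were blocks, arrays left out, 2-group fits, all probe sets, a filter on dim genes, 2 further normalizations and another variance model. No set test was run.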

Additional observations from a re-analysis of the deposited data

How the results depend on the processing

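No member difference passed the threshold under any alternative run; of 14 differences with at least 1 stage above background, alternative fits gave 334 values, 31 with the opposite sign, 10 of the 42 differences within single sets had the opposite sign, and the lowest limma adjusted p was 0.0935, for Greb1 between post-lactation and lactation. With title replicate numbers as a block, which do not pair the arrays, the counts of genes called were 0 for lactation against virgin, 118 for post-lactation against lactation and 33 for post-lactation against virgin, beside 0, 129 and 32 with no block, and no member was called. With the array set as a block the counts were 4, 642 and 82. Quantile normalization gave 1 gene for lactation against virgin and 205 for post-lactation against lactation, and subtracting array medians gave 1 for the first. Leaving out arrays or sets gave 0 to 138 genes for post-lactation against lactation and 0 to 34 for post-lactation against virgin, the 0 without array set 1 in both and also without array set 2 in the second. In alternatives chosen after seeing the data, the set block gave 927 and 4 genes for these comparisons without virgin 1, 0 and 0 without set 1, 70 and 0 without set 2, and 8 for the second without set 3. With fewer arrays these fits have fewer residual degrees of freedom. Oxtr counts as above background by the sensory receptor level, which leaves 2 members near background in place of 3.

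Over the fits that leave out arrays or sets, the lactation minus virgin difference ran from -0.46 to 0.25 for Esr1, -0.22 to 0.39 for Ghr, -0.28 to 0.30 for Socs2 and -0.039 to 0.027 for Cish. The post-lactation minus lactation difference ran from 0.31 to 0.66 for Ghr, -0.17 to 0.40 for Socs2 and -0.050 to 0.0043 for Cish, which was 0.014 with quantile normalization. The post-lactation minus virgin difference ran from -0.66 to 0.092 for Esr1, -0.15 to 0.47 for Socs2, -0.059 to 0.0012 for Cish and -0.22 to 0.73 for Greb1. With the set block, lactation minus virgin was 0.11 for Esr1 without set 2 and 0.21 without set 3, -0.22 for Ghr without virgin 1 and -0.21 without set 1, and -0.022 and -0.046 for Socs2, and Esr1 was 0.092 for post-lactation minus virgin without set 3. The cause of these sign changes was not tested.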
